A study of Homo sapiens with 24 samples.

Results

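The genes described here are WNT5A and 9 other genes of the Wnt pathway: WNT7B, FZD2, FZD7, ROR1, LRP5, LRP6, DKK1, AXIN2 and LEF1. They were chosen by name, with earlier results of these data known, and all 10 were found among the 22026 genes of the mRNA table. The cells were A549, a long-established epithelial line from a human lung adenocarcinoma. They were grown in CAF conditioned medium or in a control medium for 3, 6, 12, 24, 48 or 72 h, and polyadenylated RNA was sequenced. The labels use CAF without an expansion (the usual one is cancer-associated fibroblast), and they give neither the make-up of the control medium nor the source of the conditioned one. Each medium had 6 libraries, 1 at each time. The series describes 2 biological replicates, but every gene has only 1 value for each medium and time, so no time has replicates of its own. Each library in CAF medium was therefore paired with the control of the same time, and the 6 pairs stood in for replicates. Separate cultures are not stated for the libraries, and the p-values measure only the spread between the pairs, which may be technical and which also contains any true drift of the effect over the course.

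Wnt proteins are secreted lipid-modified ligands that bind Frizzled receptors on the cell surface. In the beta-catenin branch, Frizzled pairs with the co-receptors LRP5 and LRP6, the complex that degrades beta-catenin is switched off, and beta-catenin joins TCF/LEF factors on DNA to raise target genes such as AXIN2. In the beta-catenin-independent branch, ligands such as WNT5A act through Frizzled with ROR or RYK receptors on cell polarity and movement. WNT5A is known as a ligand made in quantity by fibroblasts and by mesenchymal-like tumour cells.

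Levels are in RPKM (reads per kilobase, corrected for library size), a length-corrected unit that can be set side by side between genes. Depth worked out from the steps between low values ranged over the libraries of 3 to 12 h from 23.9 to 29.3 M reads, and over those of 24 to 72 h from 33.9 to 40.6 M, so depth and time cannot be told apart. Of 6 epithelial markers, the keratin genes KRT7, KRT8 and KRT18 had 677 RPKM as their lowest value in any library. The other 3 were lower and varied, KRT19 from 1.56 to 34.05 RPKM, CDH1 from 4.68 to 40.04 and EPCAM from 0.24 to 6.46. Of 11 fibroblast markers 6 stayed under 1 RPKM in every library, and the collagen genes COL1A2 and COL3A1 reached at most 0.12 and 0.16 RPKM. The summed level of the 11 markers was 4.90 to 11.7 RPKM in control and 8.74 to 12.1 RPKM in CAF medium, with COL1A1 at 1.37 to 4.27 and 2.60 to 5.81 RPKM. In bulk RNA, fewer cells making a transcript and less transcript per cell cannot be told apart.

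DKK1 had the highest level of the 10 genes, with a mean of 23.2 ± 9.87 RPKM (SD over the 12 libraries), and LEF1 the lowest, with 0.108 ± 0.0678. Between them came WNT7B (15.3 ± 4.75 RPKM), LRP5 (10.97 ± 1.88), WNT5A (8.85 ± 3.02), LRP6 (8.77 ± 1.28), FZD2 (8.48 ± 1.65), FZD7 (4.67 ± 1.50), AXIN2 (3.99 ± 1.93) and ROR1 (3.22 ± 1.03). WNT5A, LRP6 and FZD2 were not separated by their spread: WNT5A was above LRP6 in 6 of 12 libraries, and LRP6 above FZD2 in 7. AXIN2 and ROR1 were not separated either, with AXIN2 higher in 7 of 12 libraries. LEF1 was below ROR1 in 12 of 12 libraries. The implied reads per library ran from 224 to 4030 for the 9 genes other than LEF1, and from 4 to 43 for LEF1.

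**Figure D1:**
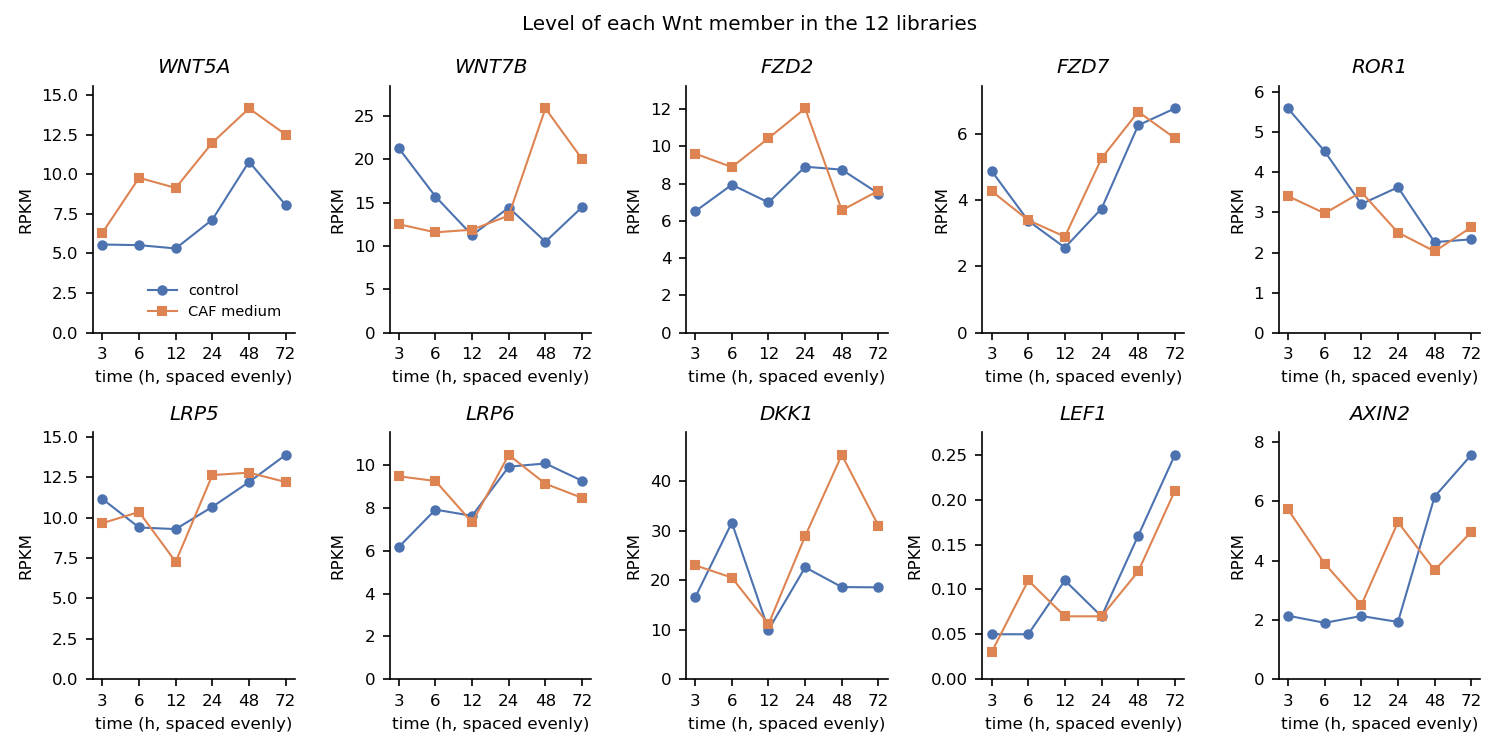
RPKM (vertical axis, from 0, with its own scale in each panel) of the 10 genes against time in h (spaced evenly), 1 point per library, with circles for control and squares for CAF medium. WNT5A lies higher in CAF medium at 6 of 6 times, while every other gene crosses between media.

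The ligand WNT5A was the member that rose over the 6 times. In control medium it measured 5.56, 5.52, 5.31, 7.13, 10.8 and 8.05 RPKM at 3, 6, 12, 24, 48 and 72 h. In CAF medium it measured 6.30, 9.77, 9.13, 12.0, 14.2 and 12.5 RPKM at the same times. It was thus higher in CAF medium at 6 of 6 times, as were 8.97% of the tested genes. The ratio of CAF medium to control was smallest at 3 h, 1.13, and largest at 6 h, 1.77, and no single time reached a 2-fold difference. Over all times the media overlapped, and WNT5A also climbed in control medium. Within 3 to 12 h and within 24 to 72 h every CAF medium library was above every control library of that window, as for 18.6% and 6.05% of the tested genes.

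The means of WNT5A were 7.06 ± 2.13 RPKM in control and 10.6 ± 2.81 in CAF medium (SD, n = 6 times). The log2 difference, on the log2(RPKM + 0.5) scale used for every test here, was 0.56 ± 0.10 (SE), with an adjusted p = 0.0166 by limma with Benjamini-Hochberg adjustment over 12029 genes. Adjusted p ran from 0.0131 to 0.331 over 14 alternative settings, with the call lost without the 6, 12 or 24 h pair (limma, adjusted p = 0.0659, 0.0589 and 0.0605), without a time term (0.331) and with no filter on low values (0.0689). The summed fibroblast markers given above had a higher but overlapping range in CAF medium. So did COL1A1 and THY1 (0.12 to 1.18 RPKM in control and 0.53 to 2.22 in CAF medium) among them. PDGFRA did too (0.38 to 0.63 RPKM in control and 0.42 to 1 in CAF medium), as did COL1A2, COL6A3, PDGFRB and POSTN, each at most 0.12 RPKM. DCN had the same minimum in both media, 0.13 RPKM, and maxima of 0.56 in control and 0.6 in CAF medium. FAP, LUM and COL3A1 did not shift in that way. FAP ran from 2.11 to 4.09 RPKM in control and from 1.67 to 4.71 in CAF medium. LUM ran from 0.59 to 1.09 and from 0.24 to 1.43 RPKM, and the maximum of COL3A1 was 0.16 in control and 0.11 in CAF medium. The part of these markers in the WNT5A difference was not tested. The effect was 0.56 ± 0.15 over 3 to 12 h and 0.56 ± 0.15 over 24 to 72 h. Neither window alone passed (limma, adjusted p = 0.0526 and 0.06). The early effect passed without the 3 h pair (0.75, limma, adjusted p = 0.0366) or the 24 h pair (0.0432), and the late effect without the 3 h pair (0.036) or with quantile normalization (0.0475). The late minus early difference was 0.01 ± 0.21 (adjusted p = 0.995).

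WNT5A has 2 start sites in the RefSeq promoter table (GRCh38.p14), and the 250 bases before each are shown because they are the windows searched for the TCF/LEF core motifs ATCAAAG and TTCAAAG on both strands. The first is chr3:55487307-55487556 and the second chr3:55481399-55481648, both on the minus strand, printed 5′ to 3′ toward the start site.
WNT5A distal start: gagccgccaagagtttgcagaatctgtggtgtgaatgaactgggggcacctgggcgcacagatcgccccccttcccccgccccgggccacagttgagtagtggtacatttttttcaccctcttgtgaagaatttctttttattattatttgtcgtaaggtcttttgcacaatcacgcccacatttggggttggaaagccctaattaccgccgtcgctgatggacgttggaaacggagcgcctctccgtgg
WNT5A proximal start: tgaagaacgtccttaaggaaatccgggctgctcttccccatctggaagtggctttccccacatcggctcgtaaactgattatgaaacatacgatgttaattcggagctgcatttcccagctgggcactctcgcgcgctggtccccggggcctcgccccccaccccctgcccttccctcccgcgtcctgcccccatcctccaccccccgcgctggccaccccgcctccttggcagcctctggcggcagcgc
Neither window held either motif, and 5.94% of 35116 RefSeq promoter windows of this length held at least 1. Their GC content was 52.8% and 64.4%. The RPKM table has a single row for WNT5A, so the transcripts of the start sites were not measured apart.

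WNT7B, a ligand known for its role in lung growth, changed places between media over the course. Control libraries measured 21.3, 15.7, 11.2, 14.4, 10.5 and 14.5 RPKM at 3, 6, 12, 24, 48 and 72 h. CAF medium libraries measured 12.5, 11.6, 11.9, 13.5, 25.9 and 20.04 RPKM. The gene was lower in CAF medium at 3, 6 and 24 h and higher at 12, 48 and 72 h, and the ranges overlapped. The log2 difference at 48 h, 1.26, was past 1, as for 2.24% of the tested genes. Fitted effects were -0.36 ± 0.23 over 3 to 12 h and 0.54 ± 0.23 over 24 to 72 h, a late minus early difference of 0.91 ± 0.32, none past the threshold (limma, adjusted p = 0.343, 0.195 and 0.307). The WNT7B early effect ran from -0.17 without the 3 h pair to -0.58 without the 12 h pair, and the late effect from 0.18 without the 48 h pair to 0.86 without the 24 h pair. Over the 6 times the change was 0.09 ± 0.21 (limma, adjusted p = 0.809), and it was -0.15 without the 48 h pair. A slope of the medium effect on log2 hours, a fit added after the values were seen, was 0.34 ± 0.08 for WNT7B and also missed it (limma, adjusted p = 0.109).

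Among the receptors, FZD2 was higher in CAF medium at 5 of 6 times, FZD7 at 4 of 6, and ROR1 was lower in CAF medium at 4 of 6 times. FZD2, a Frizzled that binds WNT5A, measured 6.51, 7.94, 6.99, 8.91, 8.75 and 7.47 RPKM in control and 9.61, 8.89, 10.4, 12.0, 6.57 and 7.62 RPKM in CAF medium from 3 to 72 h. Its groups did not overlap over 3 to 12 h, where 18.6% of the tested genes had CAF medium above control without overlap, but did over 24 to 72 h, where the 48 h library in CAF medium was the lowest of that medium. The fitted effects on FZD2 were 0.41 ± 0.16 early and 0.02 ± 0.16 late (limma, adjusted p = 0.146 and 0.964), and 0.21 ± 0.13 over all times (0.285).

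FZD7, a Frizzled of the same subgroup as FZD2, ran from 2.57 to 6.78 RPKM in control (median 4.32) and from 2.90 to 6.68 in CAF medium (median 4.78). Both media had their lowest FZD7 value at 12 h, and the difference over the 6 times was 0.05 ± 0.11 (limma, adjusted p = 0.772). ROR1, a receptor tyrosine kinase-like receptor for WNT5A, measured 5.60, 4.53, 3.21, 3.63, 2.26 and 2.33 RPKM in control and 3.41, 2.98, 3.51, 2.50, 2.03 and 2.63 RPKM in CAF medium. The 2 earliest controls were the highest ROR1 libraries, and the groups overlapped. The ROR1 effect was -0.25 ± 0.13 over the 6 times and -0.35 ± 0.18 over 3 to 12 h, neither past the threshold (limma, adjusted p = 0.218 and 0.246).

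Neither co-receptor, LRP5 or LRP6, differed between media beyond the threshold. LRP5 ran from 9.30 to 13.9 RPKM in control (median 10.9) and from 7.27 to 12.8 in CAF medium (median 11.3), and it was higher in CAF medium at 3 of 6 times. Its change was -0.05 ± 0.10 (limma, adjusted p = 0.788). LRP6 ran from 6.18 to 10.1 RPKM in control (median 8.61) and from 7.33 to 10.5 in CAF medium (median 9.21), also higher at 3 of 6 times. Its largest difference lay at 3 h, where the control was the lowest of the 12 libraries (6.18 against 9.49 RPKM), and its change over the 6 times was 0.09 ± 0.11 (limma, adjusted p = 0.603).

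DKK1, a secreted antagonist that binds LRP5 and LRP6, stood higher in CAF medium at the late times. Control libraries measured 16.5, 31.6, 9.98, 22.6, 18.6 and 18.6 RPKM at 3, 6, 12, 24, 48 and 72 h, and CAF medium libraries 23.0, 20.5, 11.1, 28.9, 45.3 and 31.01 RPKM. Over 3 to 12 h the media overlapped and both were lowest at 12 h. Over 24 to 72 h every CAF medium library was above every control library, as for 6.05% of the tested genes. The 48 h pair differed by a ratio of 2.44 (log2 1.26), and 2.24% of the tested genes were past 1 at that time. The late means were 19.9 ± 2.33 RPKM in control and 35.1 ± 8.94 in CAF medium (SD, n = 3 times). The late effect was 0.78 ± 0.21 and missed the threshold (limma, adjusted p = 0.0639). It passed with quantile normalization (0.0424), with a minimum mean of 5 RPKM (0.0475), when the 6 h pair was left out (0.0443) and when the 24 h pair was (0.0492). Without the 48 h pair it was 0.54 (limma, adjusted p = 0.458), and it also missed the threshold without the 3, 12 or 72 h pair. The effect over 3 to 12 h was -0.0001 ± 0.21 and over the 6 times 0.39 ± 0.19 (limma, adjusted p = 0.9996 and 0.195), and the late minus early difference was 0.78 ± 0.30 (0.349).

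The 250 bases before the DKK1 start (RefSeq, GRCh38.p14, chr10:52314031-52314280, plus strand) are shown because DKK1 was the only one of the 5 members with a promoter in the table whose window held a TCF/LEF core. The capitals mark that match, which begins 95 bases before the start and is TTCAAAG on the opposite strand.
DKK1 promoter: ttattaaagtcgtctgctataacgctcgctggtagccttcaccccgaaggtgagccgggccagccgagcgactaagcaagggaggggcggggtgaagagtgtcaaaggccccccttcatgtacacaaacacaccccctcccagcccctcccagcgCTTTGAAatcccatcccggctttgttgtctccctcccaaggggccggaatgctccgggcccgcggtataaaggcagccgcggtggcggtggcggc
The other windows searched were those of WNT5A, ROR1, LEF1 and LRP5. The match is a description of the letters in this window, beside the 5.94% of all windows that hold at least 1 such core.

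AXIN2, a scaffold of the beta-catenin destruction complex and a target gene of beta-catenin signalling, reversed its order between media during the course. In control medium it measured 2.14, 1.90, 2.13 and 1.93 RPKM at 3, 6, 12 and 24 h, then 6.16 at 48 h and 7.57 at 72 h. In CAF medium it measured 5.73, 3.90, 2.50, 5.30, 3.68 and 4.97 RPKM. AXIN2 was therefore higher in CAF medium at the first 4 times and lower at 48 and 72 h, and its groups did not overlap over 3 to 12 h, as for 18.6% of the tested genes in that direction. The log2 differences at 3 h and 24 h, 1.24 and 1.26, were past 1, as for 1.20% and 3.38% of the tested genes at those times. The early effect was 0.77 ± 0.32 and the late effect 0.01 ± 0.32, with a late minus early difference of -0.76 ± 0.45, none past the threshold (limma, adjusted p = 0.164, 0.993 and 0.56). Without the 24 h pair the early effect passed (limma, adjusted p = 0.0253) and so did the late minus early difference, at -1.38 (0.0357). Neither passed without any other pair: the early effect then ran from 0.53 without the 3 h pair to 1.06 without the 12 h pair (limma, adjusted p up to 0.422). The late minus early difference was nearest to 0 without the 48 h pair, at -0.42 (limma, adjusted p = 0.957). The slope of the medium effect on log2 hours, added after the values were seen, was -0.38 ± 0.11 and did not pass (limma, adjusted p = 0.168). A split of 3 to 24 h against 48 to 72 h was also tried after the AXIN2 values were seen. It was dropped because the outcome had guided it, and it is not reported here.

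Between 24 and 48 h several pathway genes stood higher at the later time in control medium, a pattern picked out after the values were seen and not tested. Of the 81 tested members and pathway genes, 5 were higher at 48 h by 1 or more on the log2 scale and 0 lower by as much, beside 2.29% and 0.557% of all tested genes. AXIN2 went from 1.93 to 6.16 RPKM, TLE2 from 1.12 to 3.38, TCF7, a TCF/LEF factor and target gene, from 0.82 to 2.55, NKD2 from 1.34 to 3.49 and PTK7 from 1.50 to 3.63. In CAF medium 1 of the 81 was higher by as much and 0 lower, MMP7, a protease and target gene, from 5.67 to 13.1 RPKM, beside 1.40% and 2.68% of all tested genes. Over the same interval in CAF medium AXIN2 went from 5.30 to 3.68 RPKM and TCF7, TLE2, NKD2 and PTK7 moved by less than 0.4 on the log2 scale. Each step compares 1 library with 1 library, so it has no replicate check.

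LEF1, a DNA-binding partner and itself a target of beta-catenin, was close to the limit of detection. It was listed at 0.05, 0.05, 0.11, 0.07, 0.16 and 0.25 RPKM in control and at 0.03, 0.11, 0.07, 0.07, 0.12 and 0.21 RPKM in CAF medium. The lowest value stood for about 4 reads and the highest for about 43, with exact 95% Poisson intervals of 0.00866 to 0.0814 and 0.181 to 0.336 RPKM that cover counting error only. The highest value in each medium was at 72 h. LEF1 did not reach the mean of 1 RPKM needed for testing. In the fit with no filter its medium effect was -0.03 ± 0.04 and its slope on log2 hours 0.07 ± 0.02 (limma, adjusted p = 0.705 and 0.00905 over 22026 genes), on a scale that understates the change of such low genes.

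**Figure D2:**
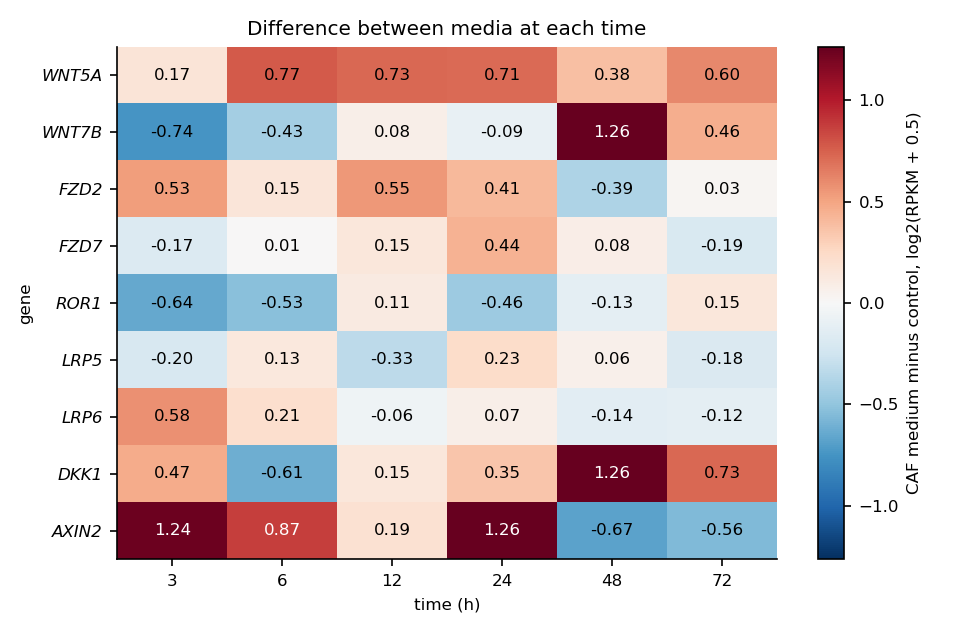
CAF medium minus control on the log2(RPKM + 0.5) scale for the 9 tested members (rows) at each time in h (columns), 1 pair of libraries per cell, printed in the cell and coloured red where CAF medium was higher. The row of WNT5A holds 6 positive values, from 0.17 to 0.77.

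Of the 9 members tested, 1 rose with CAF medium over the 6 times and 0 fell, beside 6.06% and 4.13% of the 12029 genes that rose and fell. None of the 9 passed over 3 to 12 h, where 3.77% of all genes rose and 1.86% fell. None passed over 24 to 72 h (1.36% and 2.74%) or in the late minus early difference (0.0582% and 0.357%), by limma with Benjamini-Hochberg adjustment. At an unadjusted p under 0.05 those 3 counts for the members were 3, 3 and 2 of 9, beside 25.2%, 21.3% and 11.5% of all tested genes. Over the 6 times the unadjusted count was 1 of 9, beside 29.8% of all tested genes. The median change over the 6 times was 0.09 over the 9 members and 0.002 over all tested genes. With 1 or 0 members called, these counts do not set the members apart from the other genes.

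**Figure D3:**
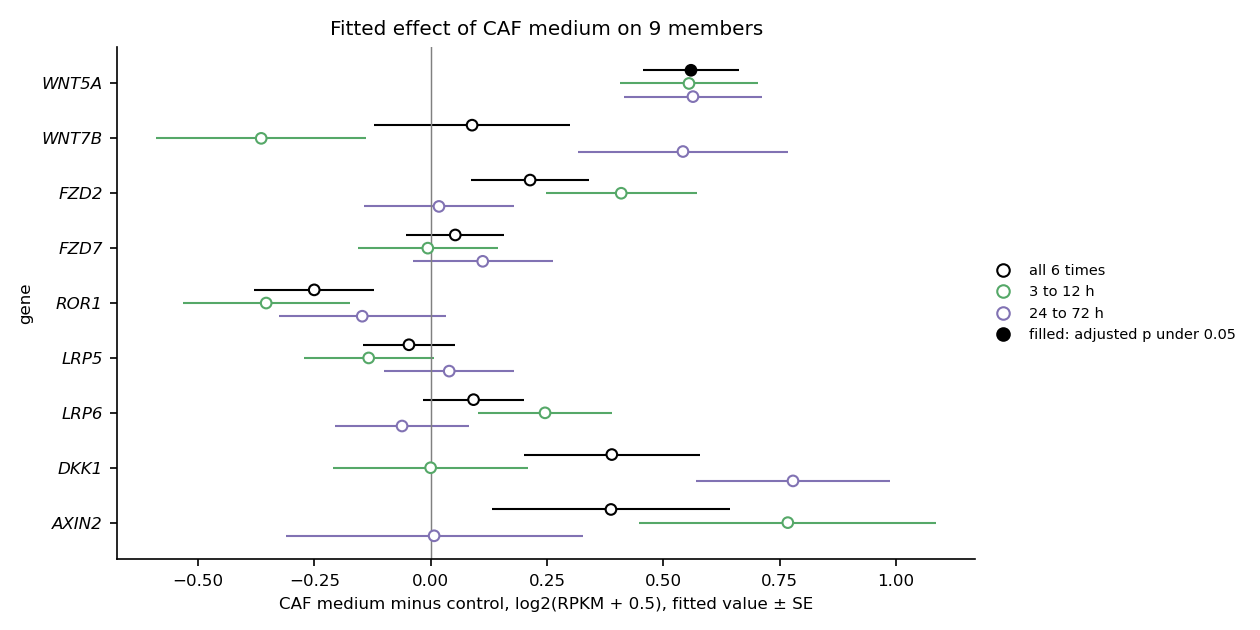
Fitted difference between CAF medium and control (horizontal axis, log2(RPKM + 0.5), bars ± SE) for the 9 tested members, over all 6 times, 3 to 12 h and 24 to 72 h. The only filled point, past an adjusted p of 0.05, is WNT5A over all times at 0.56.

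A slope against log2 hours, common to both media, described the change over the culture. WNT5A rose by 0.19 ± 0.04 per doubling of the hours and FZD7 by 0.16 ± 0.06, while ROR1 fell by 0.18 on the same scale (SE 0.04) (limma, adjusted p = 0.00193, 0.0477 and 0.00344). That is 2 of 9 members up and 1 down, beside 34.4% of all tested genes in either direction (2532 up and 1603 down). At an unadjusted p under 0.05 the count was 4 of 9, beside 44.6% of all tested genes. The 2 libraries of a time share that time, so these p-values can be too small. With the mean of each time as 1 point, WNT5A and ROR1 still passed (limma, adjusted p = 0.0118 and 0.0107) and FZD7 did not (0.118). The FZD7 call was also lost without the 6, 24, 48 or 72 h pair (limma, adjusted p = 0.148, 0.0576, 0.198 and 0.261) and with quantile normalization (0.0666), median centring (0.0614), a pseudocount of 0.1 (0.051) or no filter (0.0946). Within the 3 to 12 h libraries the slopes of WNT5A, ROR1 and FZD7 were 0.11, -0.17 and -0.33, and within the 24 to 72 h libraries, which were deeper, 0.11, -0.18 and 0.31, none past the threshold (limma, smallest adjusted p = 0.147).

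Slopes were also fitted in each medium alone. In control medium WNT5A (0.17), AXIN2 (0.37) and LRP6 (0.13) rose with time and ROR1 (-0.24) fell (limma, adjusted p = 0.0438, 0.0295, 0.0474 and 0.0118), beside 14.4% of all tested genes up and 5.95% down. In CAF medium WNT5A rose (0.20, limma, adjusted p = 0.0342), as 6.41% of all genes did and 5.18% fell, whereas AXIN2, LRP6 and ROR1 had slopes of -0.01, -0.01 and -0.11 (0.94, 0.936 and 0.249). A call in 1 medium and not in the other does not show that the slopes differ. Tested directly as the slope of the medium effect, none of the 9 members passed, beside 0.141% of all genes (limma, adjusted p = 0.168 for AXIN2, 0.302 for LRP6 and 0.416 for ROR1).

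The rest of the pathway was read from a list of 113 further genes by role. Of these, 111 were in the table, 72 passed the filter, and SFRP2 and FAM123B were not analysed here. Over the 6 times 7 of the 72 rose and 1 fell (9 members: 1 and 0), beside 6.06% and 4.13% of all tested genes, and the median change was 0.11 beside 0.002 over all tested genes. Without the 6 h or the 12 h pair 8 of these 8 calls were lost (limma, adjusted p = 0.0508 to 0.136 and 0.0538 to 0.107), and without the 24 h pair 7 were. All 8 were also lost with no filter on low values and without a time term. Over 3 to 12 h 4 rose and 1 fell, beside 3.77% and 1.86% of all tested genes, and 5 of these 5 calls were lost without the 6 h or the 12 h pair. Over 24 to 72 h 1 rose and 0 fell (1.36% and 2.74% of all tested genes), and in the late minus early difference 0 passed. No role had more than 2 genes called over the 6 times.

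Among the other ligands only 4 of 17 passed the filter. WNT2B, a ligand of the beta-catenin branch, rose from 1.30 ± 0.67 RPKM in control to 2.50 ± 0.96 in CAF medium (SD, n = 6 times; log2 0.75, limma, adjusted p = 0.0137), higher at 6 of 6 times. It also passed over 24 to 72 h (0.87, limma, adjusted p = 0.0218), a call lost without the 48 h pair (0.232). WNT9A had the highest mean of these ligands, 4.48 RPKM in control and 5.06 in CAF medium, and did not pass (log2 0.16). The other 13 ligands had means under 1 RPKM, the largest being WNT11 at 0.728.

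Of the other receptors 7 of 11 were tested. PTK7, a pseudokinase of planar cell polarity, rose from 1.97 ± 1.31 to 3.03 ± 1.09 RPKM (log2 0.62, limma, adjusted p = 0.0353), higher at 5 of 6 times, and also passed over 3 to 12 h (0.81, adjusted p = 0.047). RYK, an alternative WNT5A receptor, had the highest mean of the group, 20.3 RPKM under control and 20.1 under CAF medium (log2 -0.03). ROR2, the other ROR receptor, reached at most 0.34 RPKM. In the secretion pair, WLS, the carrier that takes Wnt proteins to the surface, measured 7.77 and 8.31 RPKM (log2 0.12, limma, adjusted p = 0.573). In the R-spondin axis, whose ligands keep Frizzled on the surface, none of 4 tested genes passed, and RSPO3 stood at 25.8 ± 2.19 RPKM under control and at 27.1 ± 6.64 under CAF medium.

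Of the other extracellular antagonists 14 were in the table and 3 were tested. DKK3, a divergent member of the Dickkopf family, was higher in CAF medium at 6 of 6 times. It measured 12.2, 10.5, 10.7, 15.8, 31.5 and 32.5 RPKM in control and 16.2, 21.99, 22.7, 39.8, 44.9 and 35.4 RPKM in CAF medium from 3 to 72 h. Its change was 0.74 ± 0.15 (limma, adjusted p = 0.0197), larger in value than that of DKK1, a difference that was not tested. DKK3 also passed over 3 to 12 h (0.83, limma, adjusted p = 0.0441). Among other settings, that early call was lost with quantile normalization (limma, adjusted p = 0.0539) and without a trend (0.0528). SFRP1, a secreted Frizzled-related protein, measured 7.36 and 8.96 RPKM (log2 0.29, limma, adjusted p = 0.182).

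Inside the cell, DVL1, a Dishevelled protein that relays the Frizzled signal, rose from 7.55 ± 0.93 to 9.82 ± 1.44 RPKM (log2 0.36, limma, adjusted p = 0.0347), the 1 of 16 tested transducers called. CSNK1A1, the casein kinase that primes beta-catenin for degradation, had the highest mean of that role at 37.7 RPKM and did not pass (log2 0.10). Of 11 tested TCF/LEF factors and nuclear cofactors, TLE2, a corepressor, rose from 2.02 ± 1.60 to 3.75 ± 1.98 RPKM (log2 0.82, limma, adjusted p = 0.0227). BCL9L, a beta-catenin coactivator, was the highest at 15.3 RPKM (log2 -0.29, limma, adjusted p = 0.186).

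Of 7 other beta-catenin target genes tested, 1 rose and 1 fell. NKD2, a feedback inhibitor of Dishevelled, rose from 2.14 ± 1.51 to 3.85 ± 2.13 RPKM (log2 0.73, limma, adjusted p = 0.0348), higher at 6 of 6 times. CCND1, which encodes cyclin D1 and responds to many other pathways, fell from 57.5 ± 10.1 to 44.8 ± 4.77 RPKM (log2 -0.35, limma, adjusted p = 0.0437), lower at 6 of 6 times as for 7.81% of all tested genes. CCND1 also fell over 3 to 12 h (-0.49, limma, adjusted p = 0.0451). Its call over the 6 times was lost without the 3, 6, 12, 24 or 48 h pair (limma, adjusted p = 0.054 to 0.136). That call was also lost with quantile normalization (limma, adjusted p = 0.0567) and without a trend (0.0514). The early call was lost without the 3, 6, 12, 48 or 72 h pair. CD44 had the highest mean, 121.5 RPKM, and did not pass (log2 0.19).

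Of 18 tested genes of the beta-catenin-independent branch, CAMK2D, a calcium-dependent kinase, rose from 4.09 ± 1.23 to 5.32 ± 1.55 RPKM (log2 0.34, limma, adjusted p = 0.0359). CAMK2G, another kinase of that family, and VANGL2, a membrane protein of planar polarity, rose over 3 to 12 h (0.56 and 0.87, limma, adjusted p = 0.0352 and 0.0494). VANGL2 averaged 0.93 RPKM in control and 1.39 in CAF medium, so its control libraries alone would not have reached the 1 RPKM filter. Its controls at 3, 6 and 12 h were low, at 0.9, 0.3 and 0.45 RPKM. The VANGL2 call was lost with a pseudocount of 1 (limma, adjusted p = 0.0539) and with quantile normalization (0.0857). RHOA, the small GTPase at the end of the branch, was the highest at 169.0 RPKM and did not pass (log2 0.02).

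With time, 18 of the 72 genes rose and 7 fell, beside 34.4% of all tested genes in either direction. Up to 3 slopes are named for each role, the largest in size among those that passed. They were those of WNT2B (0.19) among the ligands, PORCN (-0.11) in secretion, PTK7 (0.32) and FZD8 (0.12) among the receptors, and ZNRF3 (0.15), a ligase that removes Frizzled, in the R-spondin axis. The antagonists DKK3 (0.33), SFRP1 (0.24) and KREMEN1 (0.17), a DKK1 receptor, all rose. The casein kinase genes CSNK1E (0.16) and CSNK1D (0.15) rose, and CTNNBIP1, an inhibitor of beta-catenin, fell (-0.13). TLE2 (0.40), TCF7 (0.20) and BCL9 (0.11) rose among the nuclear factors, and NKD2 (0.39), MMP7 (0.31) and CD44 (0.18) among the target genes. In the beta-catenin-independent branch CAMK2D (0.18) and the polarity cadherin CELSR3 (0.13) rose, and PRKCA, a protein kinase C gene, fell (-0.14). Of these 20 slopes, 8 kept their call whichever pair was left out, those of PTK7, DKK3, SFRP1, CSNK1E, TLE2, NKD2, CD44 and CAMK2D, and 12 lost it without at least 1 pair. Calls were lost for 12 slopes without the 72 h pair, 7 without the 6 h, 6 without the 48 h, 5 without the 3 h and 2 each without the 12 h and the 24 h pair. The FZD8 call was lost without any 1 of the 6 pairs (limma, adjusted p = 0.0535 to 0.166). Without the 72 h pair the slopes of MMP7, WNT2B and PRKCA were 0.10, 0.09 and -0.09, and without the 3 h pair those of MMP7, ZNRF3, KREMEN1 and CSNK1D were 0.53, 0.25, 0.26 and 0.24.

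**Figure D4:**
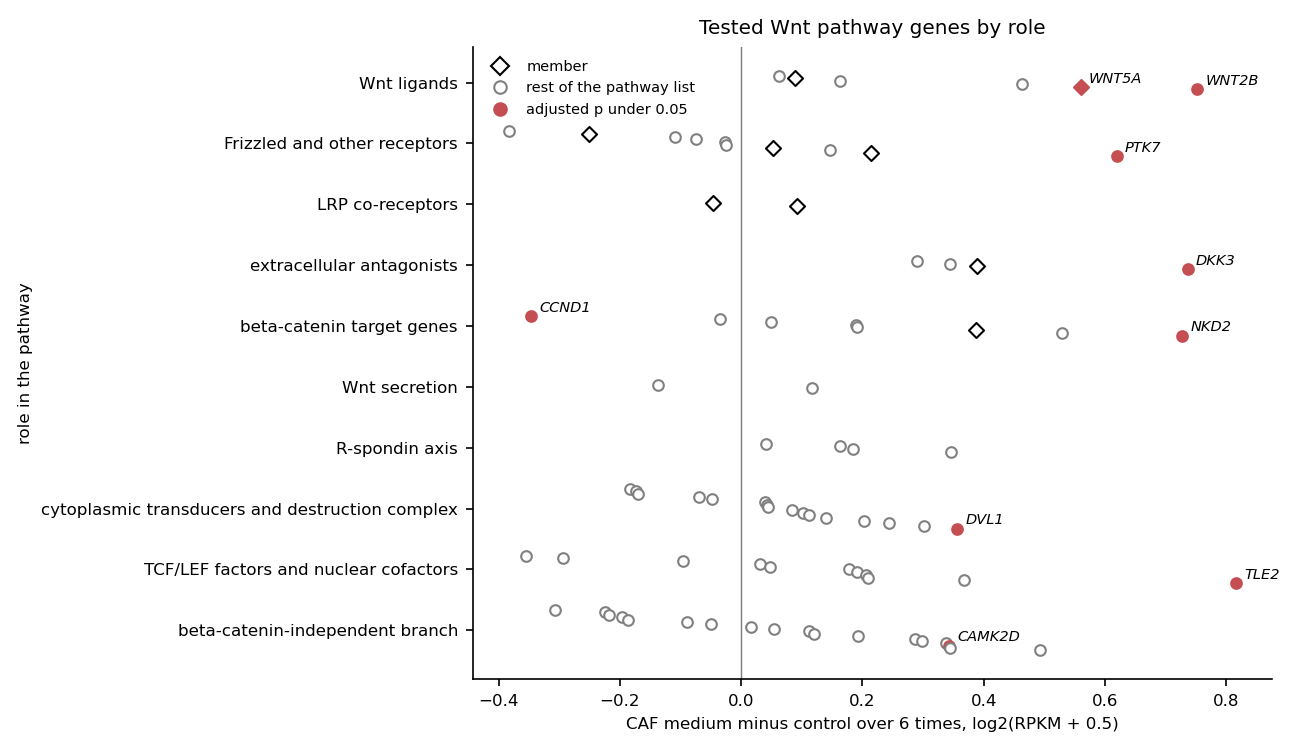
Change with CAF medium over the 6 times (horizontal axis, log2(RPKM + 0.5)) of the 81 tested genes of the pathway by role, 1 point per gene, with diamonds for the members. Named red points are past an adjusted p of 0.05, WNT5A and 8 further genes, spread over 7 of the 10 roles.

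The genes whose course was most like that of WNT5A over the 12 libraries were CAPG, IGF2BP2, CCDC28A, RRAGD and PEX6, with Pearson r of 0.96, 0.95, 0.95, 0.95 and 0.95 and Spearman rho of 0.93, 0.92, 0.98, 0.98 and 0.94. CAPG, an actin-capping protein, went from 4.37 to 7.06 RPKM between media (log2 0.64). These 12 points share media and times, so the values describe likeness only. By the 6 differences between media, the closest genes were EBP, FKBP2, CBX6, SMIM4 and MRPL43 (r from 0.97 to 0.98, rho from 0.77 to 1), and their own changes over the 6 times were only -0.08 to 0.13. Of the 45 pairs of members, FZD7 and LRP5 were the most alike over the 12 libraries (r = 0.88, rho = 0.95), and WNT5A and ROR1 had r = -0.79 and rho = -0.74. Over the 6 differences between media the r of WNT5A and ROR1 was 0.29, and that of FZD7 and LRP5 0.55.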

How the data were processed

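The authors deposited RPKM values per gene, written to 2 decimals beside a gene length. The submitters' processing notes name TopHat2, edgeR and hg19. How reads were counted, whether strand was used, which annotation served and how replicates were joined is not given in the sources used here, so overlapping or antisense genes cannot be told apart. Medium and time came from the labels. The small RNA table was not used.

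Depth was worked out from short gene models, where 100% of the low values checked were whole reads within 0.1 read. Differences were tested on log2 of the deposited RPKM plus 0.5 with limma 3.58.1 in R 4.3.3 (lmFit, then eBayes with trend, two-sided). The 12029 genes whose mean reached 1 RPKM were tested, with Benjamini-Hochberg adjustment over all of them at 0.05. This scale understates the change of low genes. Time was a factor for the medium effect, so libraries were paired by time. The early and late effects were fitted jointly, and the slope on log2 hours had medium as a term. The fits were also run on simulated data with independent noise in each library. That run cannot check for spread shared by the libraries of a time.

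The members and lists were chosen with earlier results of these data known. The genes named are all members, every listed gene called over the 6 times, early, late or in their difference, the 3 largest passing slopes of each role, the most abundant gene of each role and the 5 genes most like WNT5A by each of 2 measures. Promoter windows came from RefSeq (GRCh38.p14), where 5 of the 10 members matched by symbol.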

Additional observations from a re-analysis of the deposited data

How the results depend on the processing

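Adjusted p-values here are limma's. With 6 pairs most calls depended on which times entered, and few reads limit LEF1. Over the 6 times 729 genes rose and 497 fell, against 317 and 284 with a minimum mean of 5 RPKM, 0 and 0 with no filter, and 0 and 0 without the replicate block (no pairing by time). Leaving out each pair in turn gave 21 to 901 up and 10 to 650 down. The call of WNT5A was lost with no filter and without the block, settings that cannot change its log2 difference of 0.56. With pairs left out that difference ranged from 0.52 to 0.64. Over 3 to 12 h the counts were 0 and 0 with no filter, 230 and 135 with the 5 RPKM minimum, 299 up with quantile normalization, and 0 to 772 up and 0 to 312 down with pairs left out. Over 24 to 72 h they were 18 and 18 with no filter, and 3 to 204 up and 28 to 343 down with pairs left out. Late minus early gave 0 and 0 with no filter or without a trend, 13 up with the 5 RPKM minimum, 12 up with quantile normalization, 4 and 13 as a slope of the medium effect on log2 hours (chosen after seeing the data), and 0 to 56 up and 0 to 186 down with pairs left out. Change with time gave 1375 up with the 5 RPKM minimum, 0 and 0 within 3 to 12 h, 379 and 608 within 24 to 72 h, 716 down in control alone and 771 and 623 in CAF medium alone. Its split of 2532 and 1603 became 2035 and 2238 with median centring and 2006 and 2108 with quantile normalization, and pairs left out gave 1051 to 2631 up and 521 to 1700 down.

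Of the members' values under the alternatives 551 kept direction and side of the threshold, 36 changed sign, 15 came to pass and 22 no longer passed. Signs changed in values near 0 and also in larger ones, among them the time slopes of FZD7 (0.16, called) and AXIN2 (0.18, not called). Within 3 to 12 h alone the time slopes were -0.24 for WNT7B, 0.052 for FZD2, -0.33 for FZD7, -0.16 for LRP5, -0.017 for LRP6, -0.43 for DKK1, -0.26 for AXIN2, -0.042 for FZD8, -0.21 for ZNRF3, -0.10 for SFRP1, -0.063 for KREMEN1, -0.12 for CSNK1D, -0.0027 for TNKS, 0.021 for TCF7L1, -0.26 for MMP7, 0.026 for CDC42 and -0.075 for CAMK2D. Within 24 to 72 h they were -0.12 for LRP6 and -0.031 for DKK1, in control alone -0.13 for WNT7B, 0.054 for FZD2 and -0.0096 for DKK1, and in CAF medium alone -0.0088 for LRP6 and -0.012 for AXIN2. A pseudocount of 0.1 turned the late minus early value of WNT5A to -0.00073 and the early effect of DKK1 to 0.0017, quantile normalization turned the latter to 0.0043 and the late effect of AXIN2 to -0.014, and a pseudocount of 1 gave -0.0102 there. With each pair left out in turn, late minus early was -0.19 to 0.12 for WNT5A and -0.047 to 0.27 for FZD7. The effect over the 6 times was -0.15 to 0.26 for WNT7B, -0.025 to 0.101 for FZD7, -0.103 to 0.011 for LRP5 and -0.0056 to 0.14 for LRP6. The late effect was -0.18 to 0.22 for FZD2, -0.053 to 0.26 for FZD7, -0.29 to 0.0099 for ROR1, -0.057 to 0.15 for LRP5 and -0.62 to 0.35 for AXIN2. The time slope was -0.046 to 0.017 for FZD2. The early effect was -0.083 to 0.077 for FZD7 and -0.23 to 0.31 for DKK1. The cause of these changes was not tested.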
